A study of Mus musculus with 4 samples.

Results

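The genes described here are 30 genes of the DNA damage and replication stress response, listed by name, with no threshold on a measured value. All 30 were found in a RefSeq gene table of GRCm38, the mouse build that mm10 also names, 1 of them (H2afx, listed there as H2ax) through a synonym. Accessible regions were assigned to a gene when they shared at least 1 bp with its body or the 10 kb on either side. This gave 161 regions out of 103629 in the series, and 0 of them lay in the windows of more than 1 of the 30 genes. The assay was ATAC-seq, which uses a transposase to cut and tag open DNA, on bulk cells of B16F10, a mouse melanoma line. A pair of groups was compared, each with 2 libraries: cells with a scrambled guide RNA (sgScramble) and cells whose guide targets Arid1a (sgArid1a). The product of Arid1a is part of SWI/SNF remodellers, which slide and evict nucleosomes. The labels name no treatment, time or clone for either group, and they do not say whether the 2 libraries of a group are separate cultures. Spread within a group, and any p-value resting on it, may therefore be only technical. What the groups share is the cell line and growth in vitro.

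Cells meet broken or stalled DNA with a kinase cascade. The kinases ATM and ATR are brought to breaks and to single-stranded DNA, mediator proteins spread the signal along chromatin, and CHK1, CHK2 and WEE1 hold the cell cycle while repair enzymes act. The same signal stabilises the transcription factor p53, whose targets include brakes on growth and promoters of cell death. The series title links ARID1A to R-loops, RNA:DNA hybrids that are known to disturb replication forks, which is the setting in which these genes were looked at.

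Each library comes with 1 deposited list of broad peaks. Over the whole genome both sgArid1a lists were shorter, with 65353 and 71255 peaks (replicates 1 and 2) beside 82319 and 85613 for sgScramble. Read counts are not part of the lists, and depth is unknown. Peaks lay at the gene ends of 7 of 7 melanocyte markers in all 4 lists and at none of 3 epithelial and 2 endothelial markers. Of 4 leukocyte markers, 3 had no peak in any list, and the other, Cd3e, was covered over 1489 and 0 bp in sgScramble and 0 and 1574 bp in sgArid1a libraries. Both fibroblast markers were covered in all 4 lists, over 1585 and 1700 bp in sum in sgScramble and 702 and 844 bp in sgArid1a libraries. Their part in the results below was not tested. A peak missing from a bulk library may be closed in all cells or in a part of them, and these cannot be told apart. The lists do not check whether Arid1a was disrupted.

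The start of most of these genes was open in every library. RefSeq's promoter table for GRCm38.p6 gives windows from 250 bases before to 50 bases after a transcription start, and 31 such windows matched 27 of the 30 genes. H2afx, Wee1 and Rad9a had no entry. Of the 31 windows, 27 (87.1%) were covered from end to end by a peak in all 4 lists, against 11230 of the table's 32851 windows (34.2%). The exceptions were a pair of Bbc3 windows and the Sesn2 window, covered over at least 282 of 300 bp in every list, and the Timeless window, which had no peak in any list. Timeless, whose product travels with the replication fork, was open instead at the outer boundary of its annotated gene, 4948 bp from that tabled start, in a region shared with the end of its neighbour Mip.

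Motif letters were searched on both strands of these windows. The E2F box, the element through which S-phase genes are switched on at the G1/S boundary, was searched in the forms TTCCCGC and TTTGGCG. Matches to different motifs were counted separately and may overlap. At least 1 of them was found in 10 of 31 windows (32.3%), at Atm, Bbc3, Chek1, Chek2, Clspn, Mdc1, Msh6, Rpa1, Rpa2 and Xrcc6. An E2F box was held by 5.99% of all tabled windows and by 11.5% of those covered in all 4 lists. The NF-Y box CCAAT was found in 61.3% of the members' windows, against 37.9% of the covered windows. The SP/KLF box GGGCGG (67.7% against 69.4%) and the ETS box CCGGAAG (22.6%, or 7 of 31, against 2245 of 11230) were close to their shares among covered windows. The AP-1 letters TGANTCA and the CREB letters TGACGTC were in 0 of the 31 windows, against 4.05% and 6.13% of covered windows. Shares this low can give 0 in 31 windows, so depletion is not shown. Members' windows held a median of 24.0 CG dinucleotides, and all covered windows a median of 23.0. A match is a description of letters and not a bound site.

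The upstream parts of 3 promoters with an E2F box are shown because distal regions of Chek2 and Clspn were missing after Arid1a targeting while these promoters stayed covered in every list, and because Rpa2 is a single-stranded DNA binding partner in the same checkpoint. They were chosen after their values were seen. Atm, Rpa1 and Xrcc6 also had an E2F box, a covered window and a distal region missing after Arid1a targeting, and are not shown. Each sequence is the 250 bases before the tabled start, 5′ to 3′ on the gene's strand, GRCm38.p6, with the E2F box in capitals.
Chek2 (chr5:110839733-110839982, plus strand): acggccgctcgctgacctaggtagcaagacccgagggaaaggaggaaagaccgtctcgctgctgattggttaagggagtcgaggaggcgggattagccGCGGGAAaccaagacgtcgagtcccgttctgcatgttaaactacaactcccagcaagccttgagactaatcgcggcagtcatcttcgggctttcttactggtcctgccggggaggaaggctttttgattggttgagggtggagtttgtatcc
Clspn (chr4:126556730-126556979, plus strand): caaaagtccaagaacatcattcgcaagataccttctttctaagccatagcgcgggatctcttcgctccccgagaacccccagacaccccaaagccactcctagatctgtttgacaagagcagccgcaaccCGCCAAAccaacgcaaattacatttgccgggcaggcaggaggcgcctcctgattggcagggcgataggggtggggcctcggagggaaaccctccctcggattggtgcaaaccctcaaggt
Rpa2 (chr4:132768110-132768359, plus strand): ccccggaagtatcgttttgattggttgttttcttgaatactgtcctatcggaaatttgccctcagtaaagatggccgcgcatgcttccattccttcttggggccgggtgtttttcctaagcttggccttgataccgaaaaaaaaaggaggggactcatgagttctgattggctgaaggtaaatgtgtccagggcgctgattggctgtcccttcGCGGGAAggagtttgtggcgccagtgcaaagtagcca

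A complete p53 site, a pair of p53 decamers with no more than a short spacer between them, was searched with no mismatch allowed. It was found in 0 of the 31 windows, against 24 of 32851 in the table (0.0731%) and 1 of 11230 covered windows (0.00890%). A match this rare could hardly be met in 31 windows, so the 0 shows nothing about these genes. A single decamer was found in 4 windows (12.9%), against 8.36% of the table and 6.38% of covered windows. All 4 belong to genes that p53 activates: Mdm2, whose product degrades p53, Ccng1, a cyclin, Gadd45a, a stress sensor, and Sesn1, a sestrin that restrains mTORC1. Their upstream bases are shown with the decamer in capitals. The other p53 target members, Bbc3, Sesn2 and Gadd45b, had no decamer in any of their windows. The outer window of Sesn1 had none either. The count of 4 is small, and enrichment was not tested. For Sesn1 the inner of 2 tabled starts is given. No match in a window says nothing about p53 sites outside it.
Mdm2 (chr10:117710759-117711008, minus strand): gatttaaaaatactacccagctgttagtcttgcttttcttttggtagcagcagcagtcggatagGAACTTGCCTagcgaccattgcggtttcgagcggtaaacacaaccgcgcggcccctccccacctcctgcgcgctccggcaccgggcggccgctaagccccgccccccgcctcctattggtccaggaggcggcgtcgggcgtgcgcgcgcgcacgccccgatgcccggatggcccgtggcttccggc
Ccng1 (chr11:40755287-40755536, minus strand): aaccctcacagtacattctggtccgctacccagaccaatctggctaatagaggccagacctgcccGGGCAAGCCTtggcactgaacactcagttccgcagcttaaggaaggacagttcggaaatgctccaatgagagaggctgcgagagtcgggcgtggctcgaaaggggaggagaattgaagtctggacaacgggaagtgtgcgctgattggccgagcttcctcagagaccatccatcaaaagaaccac
Gadd45a (chr6:67037408-67037657, minus strand): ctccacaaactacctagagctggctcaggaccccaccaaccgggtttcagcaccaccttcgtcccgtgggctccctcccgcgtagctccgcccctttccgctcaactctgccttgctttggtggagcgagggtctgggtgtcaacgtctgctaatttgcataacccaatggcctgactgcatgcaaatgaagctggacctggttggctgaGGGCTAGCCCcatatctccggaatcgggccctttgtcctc
Sesn1 (chr10:41887189-41887438, plus strand): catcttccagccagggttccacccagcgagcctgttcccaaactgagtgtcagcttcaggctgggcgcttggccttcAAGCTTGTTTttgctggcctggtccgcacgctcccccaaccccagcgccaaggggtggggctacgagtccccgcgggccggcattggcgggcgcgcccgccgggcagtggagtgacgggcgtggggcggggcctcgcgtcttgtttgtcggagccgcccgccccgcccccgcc

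Regions of the 30 genes went missing in sgArid1a cells about as often as those of other genes, and those that did lay away from gene ends. A region was called lost when both sgScramble lists had a peak in it and neither sgArid1a list did, and gained in the reverse case. Of 120 regions present in both sgScramble lists, 12 were lost (95% Clopper-Pearson interval of the share 5.27% to 16.8%), while 11.8% were lost over the windows of all protein-coding genes and 12.9% over all regions. The 12 lost regions belonged to 10 genes: Chek2 and Sesn2 had 2 each, and Atm, Gadd45a, Rpa1, Ccng1, Clspn, Trp53bp1, Xrcc5 and Xrcc6 had 1 each. Of 103 regions in both sgArid1a lists, 1 was gained (0.971%, 0.0246% to 5.29%), at Wee1, against 1.33% over all windows and 1.39% over all regions. The other 19 genes had neither. Both shares lie near those of all genes, so they show nothing particular to the list. The intervals cover counting error over regions only. Without sgScramble replicate 1 the lost count was 21 of 137 (15.3%, against 19.3% over all windows). Without sgArid1a replicate 2 it was 20 of 120 (16.7% against 21.6%). The gained count was 2 to 8 when any 1 library was left out (1.94% to 7.02%, against 2.70% to 7.84% over all windows).

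**Figure D1:**
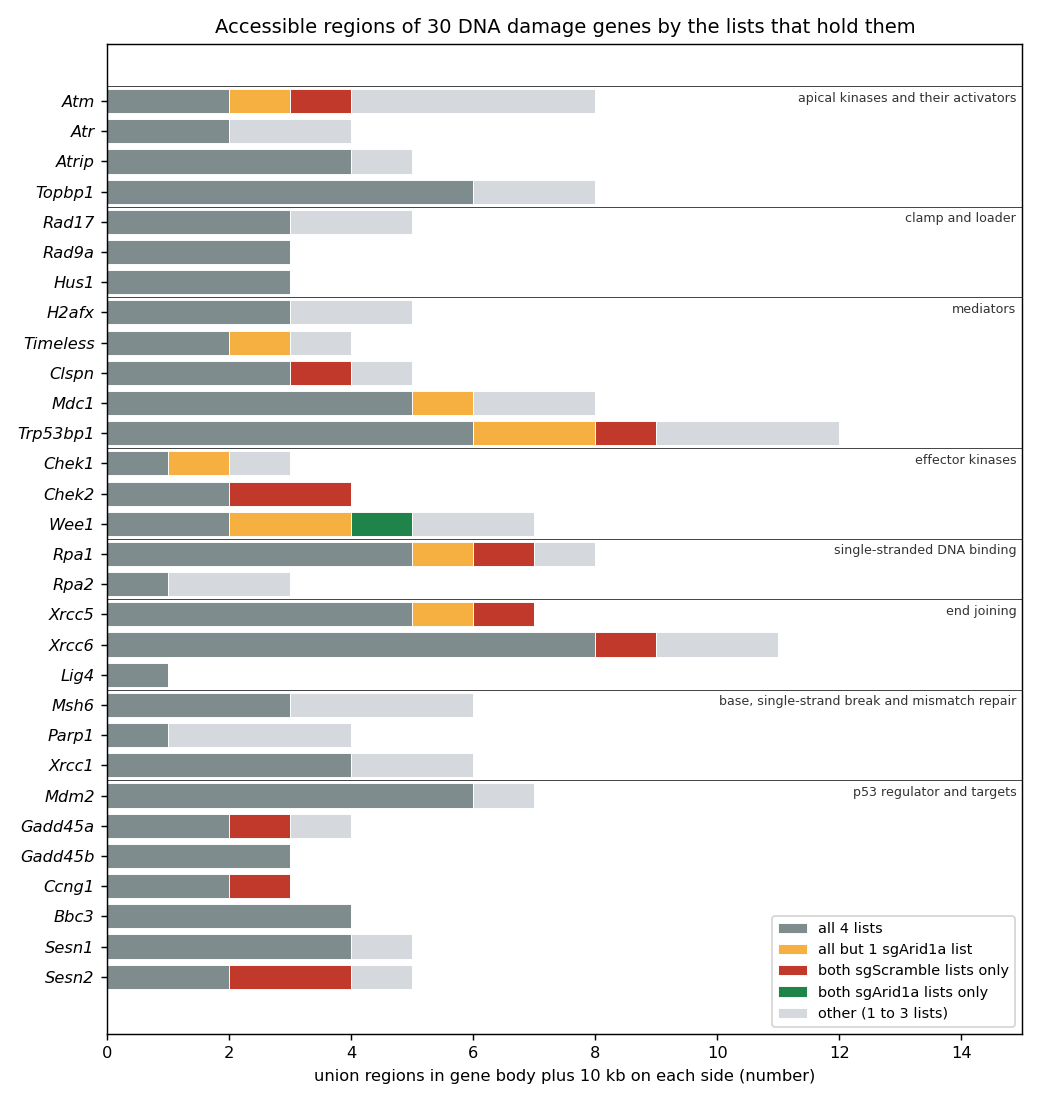
Number of accessible regions (x axis) in the window of each of the 30 genes (y axis, grouped by role), coloured by the peak lists that hold them. Red marks the 12 regions in both sgScramble lists only, green the 1 region in both sgArid1a lists only, and grey the 98 regions in all 4 lists.

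Gene-end regions, within 1 kb of either end of the member gene, were lost in 0 of 35 cases. By the limit of 3 counts, a count of 0 in 35 allows up to 8.57%; the Clopper-Pearson upper bound is higher. Over all protein-coding genes 3.08% of gene-end regions were lost. Distal regions were lost in 12 of 85 cases (14.1%, 7.51% to 23.4%). Of the gene-end regions in both sgArid1a lists 0 of 36 were gained (background 0.452%), and of the distal ones 1 of 67. The background classes differ slightly from the members' own, since they count the ends of all protein-coding genes and not of 1 gene. Some of these distal regions sit at the end of a neighbouring gene, such as Ppp1ca beside Rad9a, and 0 of 13 such regions were lost. Away from the ends of all protein-coding genes, 12 of 72 regions were lost (16.7%, 8.92% to 27.3%), close to the 14.8% found over all windows by the same definition, and 1 of 54 was gained (background 1.73%). Of the 12 lost regions, 9 lay inside the body of the member gene.

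Lost regions were weak to middling peaks. The fold given by the authors for each peak was ranked within its list, with 100 as the strongest. The 12 lost regions had mean percentiles from 1.54 to 65.2 in the sgScramble lists, with a median of 27.0. The 63 distal regions in all 4 lists ranged from 0.323 to 99.5, with a median of 44.6, and the 35 gene-end regions from 3.70 to 99.6, with a median of 71.8. Over all windows, with distal taken from the ends of all genes, the medians were 24.9 for lost, 60.8 for shared distal and 73.2 for shared gene-end regions. Lost regions were also short, with a median of 451 bp covered in the sgScramble libraries, against 966 bp for the shared distal regions of these genes. Peak strength and width moved with the losses, and their part in them was not tested.

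**Figure D2:**
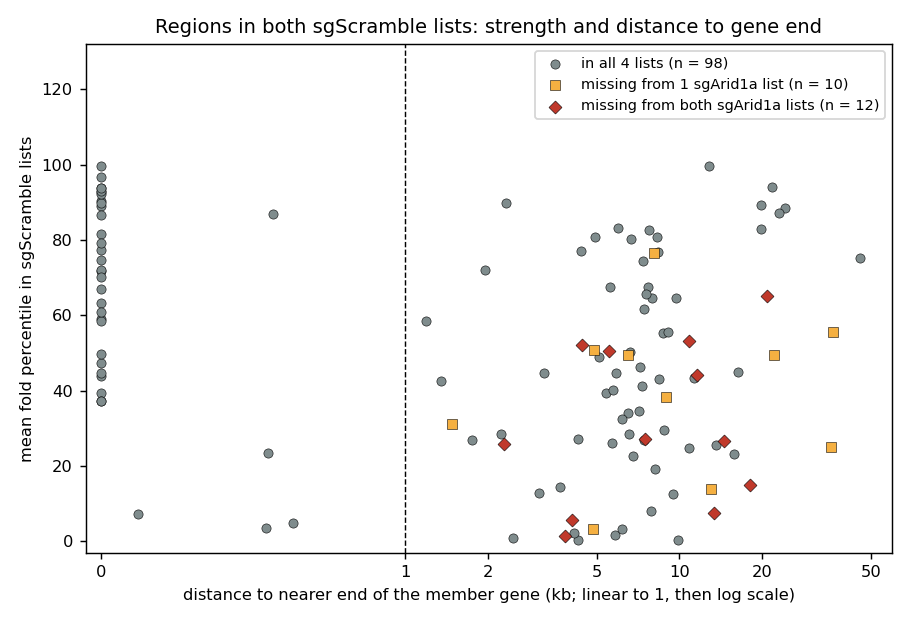
Mean fold percentile in the sgScramble lists (y axis) against the distance to the nearer end of the member gene (x axis, kb, linear to 1 and log beyond it) for the 120 regions in both sgScramble lists. The dashed line marks the 1 kb limit of gene-end regions; the 12 red regions, missing from both sgArid1a lists, all lie to its right and at or below percentile 65.2.

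The apical kinases and their activators held 1 lost region among 16 present in both sgScramble lists (6.25%, against 11.8% over all windows). The counts of each role are small, and no difference between roles was tested. At Atm, the kinase that answers double-strand breaks (chromosome 9, 53437122 to 53536828), it lay inside the gene body at 53457977 to 53458274, 20855 bp from the nearer gene end. Peaks covered 298 and 248 bp of it in sgScramble replicates 1 and 2 and 0 bp in both sgArid1a libraries. With the authors' folds at 4.42 and 4.75, it was the strongest of the 12 lost regions by percentile. The Atm start, which it shares with its divergent neighbour Npat, was covered over 1652, 1596, 1427 and 1668 bp in sgScramble replicates 1 and 2 and sgArid1a replicates 1 and 2. The groups overlapped there, so the promoter of Atm did not separate them. Atr, the kinase that answers single-stranded DNA, its partner gene Atrip and its activator gene Topbp1 had 0 lost regions. At Topbp1 a region inside the gene body (chromosome 9, 103341502 to 103342492) had the widest relative rise in covered length among the members' regions whose groups did not overlap. Its covered length went from 586 and 668 bp in sgScramble to 856 and 991 bp in sgArid1a libraries. The authors' folds there were 4.63 and 4.48 in sgScramble and 3.34 and 3.06 in sgArid1a libraries. Depth is unknown and folds were not put on a common scale between lists, so no change in strength is read from them.

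The sensor clamp and its loader, encoded by Rad17, Rad9a and Hus1, had 0 lost regions among 9, a small count beside 11.8% lost over all windows. The start of Hus1, a clamp subunit, was the strongest gene-end region of all 30 genes (mean percentile 99.6 in the sgScramble and 98.9 in the sgArid1a lists) and was covered over 1128, 1139, 1143 and 1172 bp in the 4 libraries, in the same order as for Atm. Rad17, the clamp loader, held the strongest distal region, 12897 bp inside its gene at 100637426 to 100638164 on chromosome 13. It was present in every list, with folds of 7.65 and 8.33 in sgScramble and 6.80 and 5.91 in sgArid1a libraries and with 739, 659, 617 and 624 bp covered. Percentiles in lists of unequal length show no change, so these are descriptions of each list. At Rad9a, another clamp subunit, the gene-end region was covered over 1302 and 1228 bp in sgScramble and 1015 and 1155 bp in sgArid1a libraries, without overlap between the groups. A distal region beside it, at the end of Ppp1ca (4191460 to 4192872 on chromosome 19), was among the 5 strongest shared distal regions, at mean percentiles of 89.9 and 92.9 in the sgScramble and sgArid1a lists. Peaks covered 1412, 1358, 1351 and 1354 bp of it.

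Among the mediators, 2 of 25 regions were lost, both in gene bodies, a small count beside 11.8% lost over all windows. Clspn encodes claspin, which presents CHK1 to ATR, and its lost region lay at 126583185 to 126583632 on chromosome 4, 10901 bp from the nearer gene end, with 280 and 448 bp covered in the sgScramble libraries. The start of Clspn went the other way, from 981 and 1023 bp in sgScramble to 1174 and 1033 bp in sgArid1a libraries. Trp53bp1, which encodes a p53-binding protein that steers breaks toward end joining, lost a region at 121212958 to 121213522 on chromosome 2, with 565 and 294 bp covered in the sgScramble libraries. Trp53bp1 was also the one member without a gene-end region in all 4 lists. The outer boundaries of its annotated gene, 121194835 and 121296354, lay away from its tabled start, and the region over that start (121270818 to 121272001) therefore counts as distal. It was among the 5 strongest distal regions shared by all lists, at a mean percentile of 88.4 in the sgScramble lists, with 1184, 1167, 1074 and 1139 bp covered. The 250 bases before that start, covered in all 4 lists, are given because this member has no gene-end region in all 4 lists, with the SP/KLF box in capitals.
Trp53bp1 (chr2:121271408-121271657, minus strand): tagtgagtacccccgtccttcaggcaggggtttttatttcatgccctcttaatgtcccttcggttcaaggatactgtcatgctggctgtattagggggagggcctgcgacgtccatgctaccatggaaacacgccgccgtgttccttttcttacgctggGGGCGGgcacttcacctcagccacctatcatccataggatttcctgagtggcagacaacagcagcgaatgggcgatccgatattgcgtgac

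Mdc1, a scaffold on phosphorylated H2AX, H2afx, the gene of that histone, and Timeless had 0 lost regions. A region 9874 bp beyond the end of Mdc1, inside its neighbour Ppp1r18 (chromosome 17, 35869544 to 35871119), went from 1576 and 1557 bp in sgScramble to 596 and 646 bp in sgArid1a libraries. It was very weak by fold in all 4 lists, at a mean percentile of 0.323 in the sgScramble lists. At Timeless the gene-end region at 128231277 to 128233118 on chromosome 10 was covered over 1467 and 1823 bp in sgScramble and 1369 and 1384 bp in sgArid1a libraries.

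The effector kinases lost 2 of 10 regions, both at Chek2, and held the 1 gained region, at Wee1. Over all windows 11.8% were lost and 1.33% gained, and counts this small carry no test. Chek2 (chromosome 5, 110839800 to 110874140) encodes the kinase that ATM switches on. Its lost regions lay inside the gene at 110859054 to 110859618, where peaks covered 530 and 469 bp in the sgScramble libraries, and at 110868596 to 110869739, where they covered 462 and 1144 bp. Both regions had 0 bp in both sgArid1a libraries, and they were the only regions of Chek2 away from gene ends, since its other 2 regions lie at its own start and beside the end of Ttc28. At the start of Chek2 peaks covered 1333, 1318, 1260 and 1270 bp, a difference of -60.5 bp between group means. Wee1 (chromosome 7, 110122059 to 110143299) encodes the kinase that restrains CDK1. Its gained region, at 110132205 to 110132656, 10146 bp inside the gene, was covered over 342 and 292 bp in sgArid1a replicates 1 and 2 and 0 bp in both sgScramble libraries, with folds of 3.48 and 3.40. Chek1, the target of ATR, had 0 lost regions, and a region inside it at 36716574 to 36717227 on chromosome 9 was missing from sgArid1a replicate 1 alone.

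**Figure D3:**
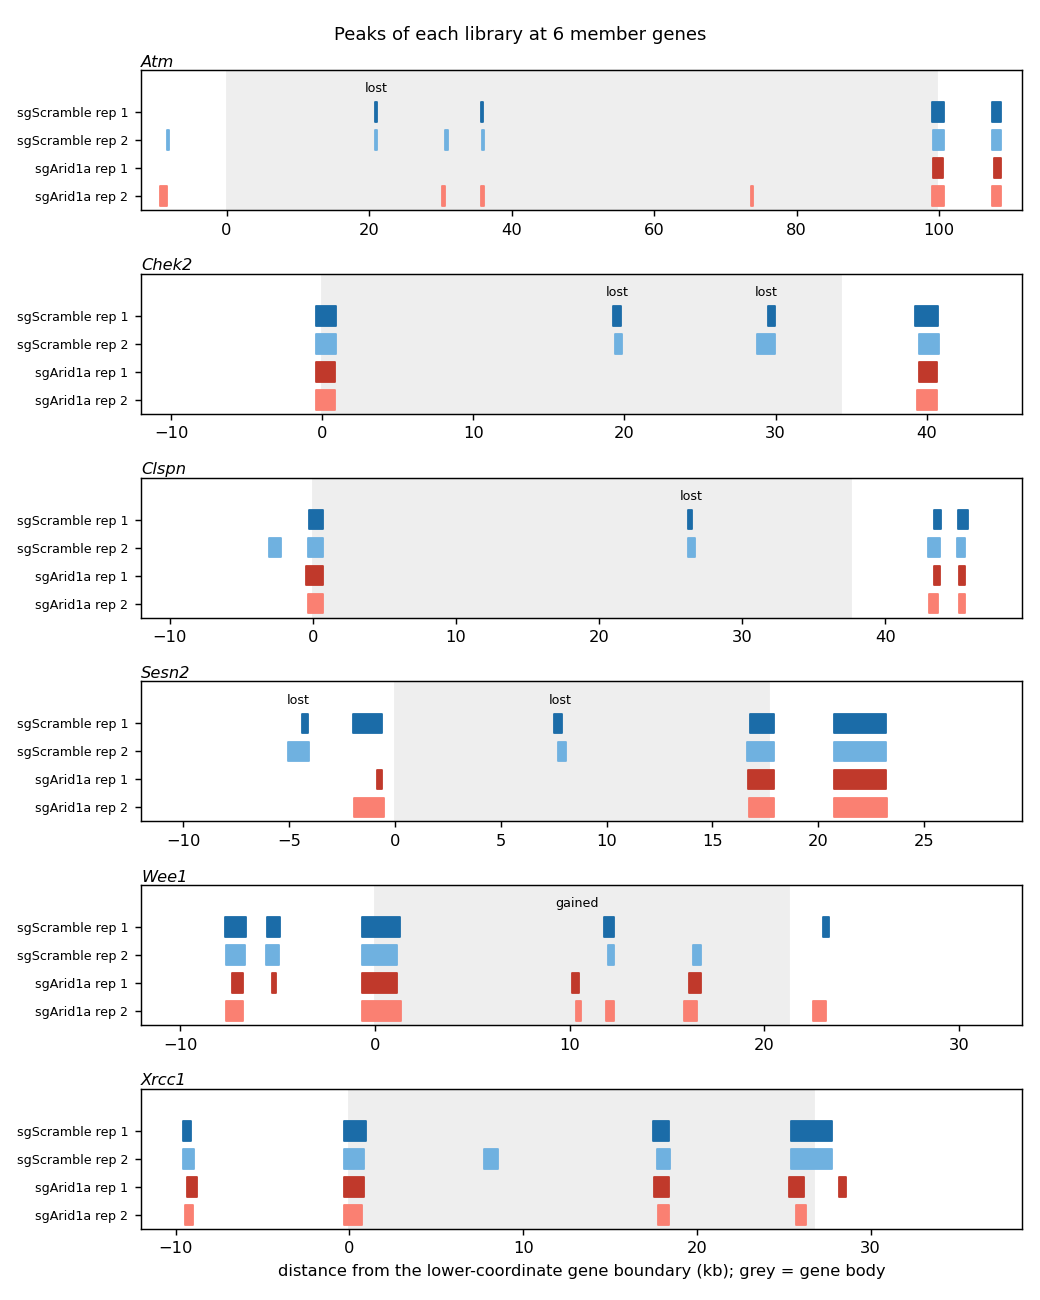
Peaks of each library (rows, 2 sgScramble in blue and 2 sgArid1a in red) along 6 genes, by distance in kb from the gene boundary with the lower coordinate (x axis); the grey span is the gene body. Lost and gained regions are labelled above the rows; the wide peak at the right end of Xrcc1 is shorter in both sgArid1a rows.

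Rpa1 and Rpa2 encode subunits of the complex that coats single-stranded DNA. Of their 8 regions in both sgScramble lists, 1 was lost (12.5%, against 11.8% over all windows). It lay at Rpa1 (chromosome 11, 75343718 to 75344636), with 756 and 727 bp covered and the lowest percentile of the 12 lost regions, 1.54. The start of Rpa2 was covered over 1358, 1368, 1305 and 1270 bp in sgScramble replicates 1 and 2 and sgArid1a replicates 1 and 2.

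End joining genes lost 2 of 17 regions (11.8%, and 11.8% over all windows). Xrcc5 and Xrcc6 encode the Ku subunits that grip DNA ends, and each lost 1 region in its gene body, at 72382846 to 72383381 on chromosome 1 (323 and 536 bp in the sgScramble libraries) and at 82026096 to 82026700 on chromosome 15 (339 and 605 bp). Xrcc5 also held the next strongest shared distal region after that of Rad17, at 72372082 to 72373091, with 947, 985, 950 and 957 bp covered. Lig4, the ligase of this pathway, had a single region in its window, over its start, which was present in all 4 lists.

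Base, single-strand break and mismatch repair genes lost 0 of 8 regions, a small count beside 11.8% lost over all windows. Xrcc1 had the widest relative difference in covered length at gene ends. Xrcc1 encodes the scaffold of single-strand break repair, and its downstream end lay in a region at 24572010 to 24574490 on chromosome 7. Peaks covered 2399 and 2351 bp of it in sgScramble and 857 and 611 bp in sgArid1a libraries, and its start, at 24546385 to 24547626, was covered over 1222, 1148, 1163 and 1018 bp. The difference in covered length thus lay at the downstream end, where sgArid1a replicate 1 had a second, separate peak 1418 bp beyond the gene. The authors' folds for the region over the downstream end were 3.69 and 3.37 in sgScramble and 3.52 and 3.88 in sgArid1a libraries. These folds belong to called peaks of unlike length in lists of unknown depth, so they are descriptions of each list. Msh6, a mismatch sensor, and Parp1, the sensor of single-strand breaks, had every region of both sgScramble lists in all 4 lists, 3 and 1 regions.

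The p53 regulator and target genes lost 4 of 27 regions (14.8%), near the 11.8% lost over all windows. Sesn2 (chromosome 4, 132492804 to 132510456), the other sestrin gene, had 2, at 132487754 to 132488752 (285 and 999 bp in the sgScramble libraries) beyond its downstream end and at 132500299 to 132500908 (378 and 417 bp) in its body. Gadd45a lost a region upstream of its start, at 67042957 to 67043418 on chromosome 6 (289 and 462 bp), and Ccng1 lost a region beyond its downstream end, at 40745478 to 40746264 on chromosome 11 (787 and 257 bp). All 4 had 0 bp in both sgArid1a libraries. All regions of both sgScramble lists were in all 4 lists at Mdm2 (6 regions), Bbc3, the gene of the death-promoting protein PUMA (4), Gadd45b, a stress sensor like Gadd45a (3), and Sesn1 (4). The gene-end region of Bbc3 was weak by fold, at percentile 4.82 in the sgScramble and 1.57 in the sgArid1a lists, and was covered over 1492, 1549, 1129 and 1465 bp. Sesn1 held a strong distal region 19901 bp inside the gene (41830475 to 41831667 on chromosome 10), with 924, 681, 818 and 1035 bp covered, which did not separate the groups.

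Covered length gave a graded value at regions present in all 4 lists. Of 98 such regions of these genes, 37 (37.8%) were covered over fewer bp in both sgArid1a libraries than in both sgScramble libraries, and 11 (11.2%) over more. Over the windows of all protein-coding genes 40.3% were narrower and 6.45% wider, and over all regions 40.6% and 6.45%, so narrowing at these genes was near the background. Gene-end regions were narrower in 14 of 35 cases (background 38.1%) and wider in 5 (background 7.08%), and distal regions in 23 and 6 of 63. Away from the ends of all protein-coding genes, as the background is counted, 19 of 50 were narrower (background 41.3%) and 4 wider (background 6.15%). The interval of the wider share, 5.74% to 19.2%, includes the background. Leaving out sgScramble replicate 1 or 2 raised the wider count to 20 or 21, and leaving out sgArid1a replicate 1 raised it to 30, where 22.6% of regions over all windows were wider. With sgArid1a replicate 2 left out, 64 of 100 regions were narrower, against 65.7% over all windows. At the median member region sgArid1a libraries covered 94.9% of the sgScramble length, and over all windows 92.0%. Covered length moves with depth and with the calling threshold, and their part was not tested.

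**Figure D4:**
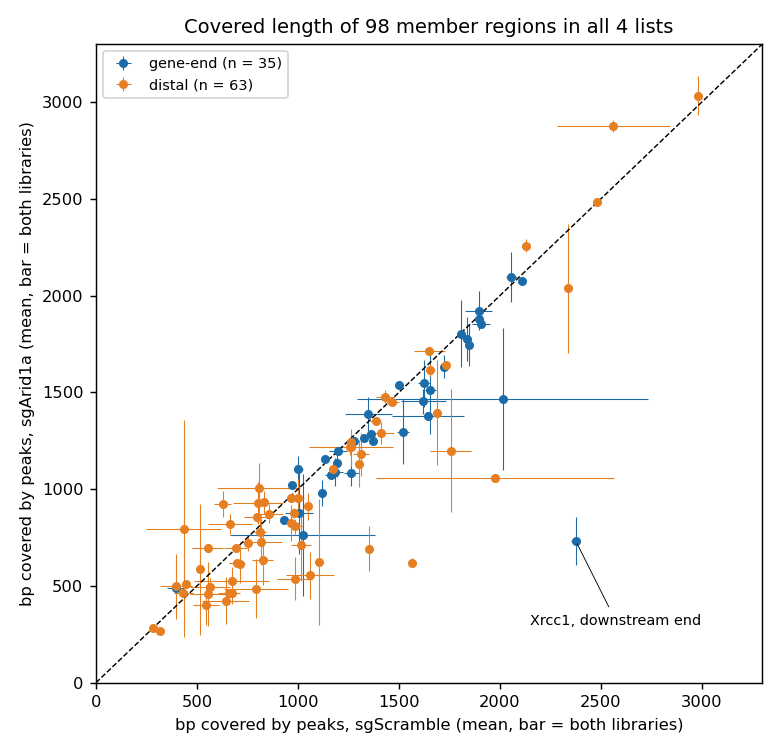
Length covered by peaks in each of the 98 regions present in all 4 lists, sgArid1a (y axis, bp) against sgScramble (x axis, bp); points are means of 2 libraries and bars span both. Most points lie on or just below the dashed line of equality, with the downstream end of Xrcc1 farthest below it among gene-end regions.

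Within 1 kb of either gene end, covered length was lower in both sgArid1a libraries at 12 of 30 genes and higher at 4 (13.3%), against 35.0% and 7.66% of all protein-coding genes covered in all 4 lists. The 30 include Trp53bp1, which was not covered in all 4 lists (0 and 0 bp in sgScramble, 0 and 197 bp in sgArid1a libraries) and could not be called. The median difference was -4.28% for the members with a value and -3.59% for all those genes. Xrcc1 stood apart, with 3223 and 3149 bp in the sgScramble libraries (3186 ± 52.3, SD, n = 2) and 1592 and 1569 bp in the sgArid1a ones (1580.5 ± 16.3). The exact two-sided permutation p was 0.33. The Xrcc1 difference is in the length of called peaks, and the lists give no signal outside the peaks. The next in covered length were Timeless (1609 ± 252 against 1349 ± 28.3 bp), Rad9a (1242 ± 19.8 against 1085 ± 99.0 bp), Topbp1 (1648 ± 146 against 1493 ± 42.4 bp) and Mdc1 (929.5 ± 14.8 against 842 ± 22.6 bp). In the other direction stood Xrcc6 (338 and 413 against 451 and 437 bp), Clspn (1002 ± 29.7 against 1103.5 ± 99.7 bp), Msh6 (1502 ± 15.6 against 1538.5 ± 31.8 bp) and Hus1 (1133.5 ± 7.78 against 1157.5 ± 20.5 bp). For Xrcc6 these outer ends exclude its tabled start, which was covered over 1728, 1736, 1642 and 1642 bp. The groups did not overlap at any of these 9 genes, and with 2 libraries a group the exact p cannot be smaller.

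**Figure D5:**
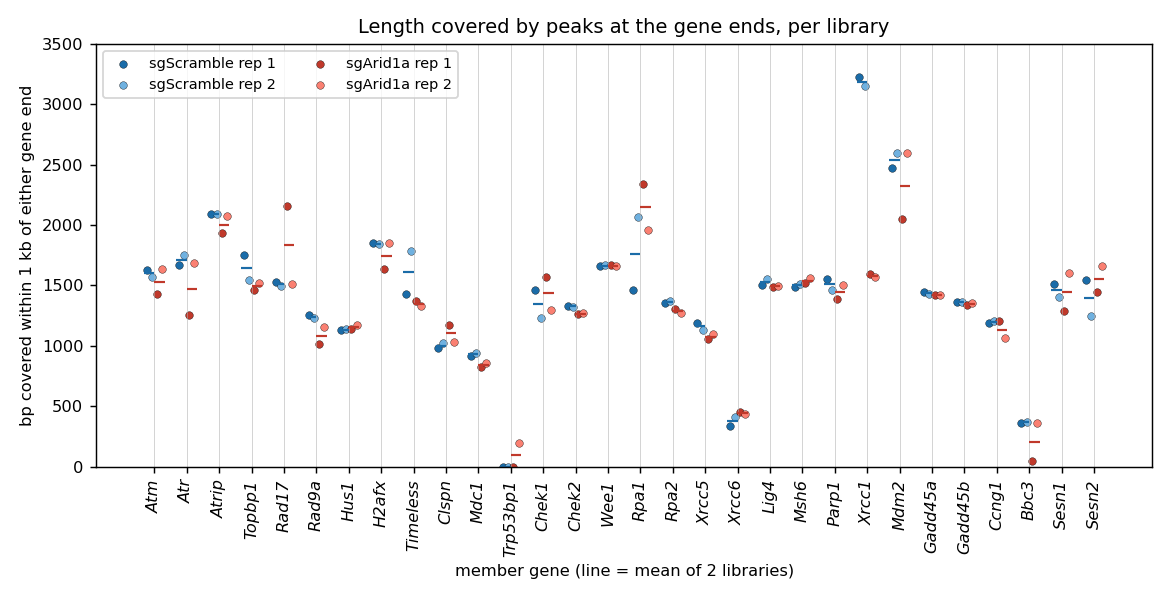
Length covered by peaks within 1 kb of either end of each gene (y axis, bp) for the 30 genes (x axis); points are libraries and short lines the mean of 2. Xrcc1 shows the widest gap between the groups, and most other genes show differences that are small beside their covered length.

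Several regions were missing from a single sgArid1a library. Of the 120 regions in both sgScramble lists, 8 (6.67%) were missing from sgArid1a replicate 1 alone and 2 (1.67%) from replicate 2 alone, against 9.82% and 4.16% over all windows. Trp53bp1 had 2 of the 8, and Atm, Chek1, Rpa1, Timeless, Wee1 and Xrcc5 had 1 each, while Wee1 and Mdc1 had the 2 of replicate 2. The shorter list, that of sgArid1a replicate 1, was the one with more such gaps.

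A list of 60 other genes of the same response, all found in the gene table, gave similar counts. Of their 214 regions in both sgScramble lists 28 were lost (13.1%, 8.87% to 18.4%, background 11.8%), at 23 genes, and 1 of 165 was gained (background 1.33%), at Lig3, a ligase of single-strand break repair. Mre11a, an end-processing nuclease, Exo1, an exonuclease, Smarcal1, which remodels stalled forks, Prkdc, the DNA-dependent kinase of end joining, and Phlda3, a p53 target, had 2 lost regions each. Here 4 of 68 gene-end regions were lost (5.88%, 1.63% to 14.4%, background 3.08%), at Exo1, Smarcal1, Xpc and Cdkn1a. The Cdkn1a region (chromosome 17, 29090895 to 29091801), named after its values were seen, lay over a boundary of this p53-induced cell cycle inhibitor gene, with 907 and 717 bp covered in the sgScramble and 0 bp in both sgArid1a libraries. It was among the weakest peaks, at percentile 0.180.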

How the data were processed

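ATAC-seq peak lists of 4 libraries (Omni-ATAC with 50000 cells per reaction, per the labels' protocols) were used as the authors deposited them, 1 list per library. Groups and replicate numbers came from the sample titles. Per peak the deposited columns give a score, a fold (a linear ratio) and −log10 p and q values, with the lowest −log10 q at 1.00 or 1.01. The submitters' processing notes name HOMER, STAR 2.5.3a and the builds mm10 and GRCm38, without roles. The peak caller was not given in the sources used here, nor was any Tn5 shift. Depth is unknown, so no interval covers it.

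Peaks on chromosomes 1 to 19, X and Y sharing at least 1 bp were merged into regions, and windows were drawn around 21883 protein-coding genes of RefSeq's GRCm38.p6 table. Strand came from RefSeq's promoter table, whose sequences were checked on 1886 pairs of overlapping windows on opposite strands. The background is the same count over all protein-coding windows. Fold and −log10 values, as deposited, were only ranked or filtered within a list. The members and gene lists were chosen with earlier results of these data known, so nothing here is independent support for those results. Values were given for genes with a lost or gained region, genes without a shared gene-end region, up to 5 genes a direction with the widest non-overlapping gene-end difference and the 5 strongest shared distal regions. Other pathway genes were named with at least 2 lost or 1 gained region. Promoters were shown for p53 targets with a match and for genes without a shared gene-end region, and those of Chek2, Clspn and Rpa2 were added for their E2F box after values were seen. The alternatives were stricter or equal-length lists, other merging, overlap, width, window and gene-end settings, leaving out each library, and the replicate number as a block. Merging and overlap steps were tested on simulated lists. Python 3.11.15, numpy 2.4.6, pandas 2.3.3, SciPy 1.17.1 and matplotlib 3.10.9 were used.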

Additional observations from a re-analysis of the deposited data

How the results depend on the processing

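The count of 12 lost regions depended on which peaks were admitted. With each list's upper 50% by fold it was 4 of 52 (7.69%), and with windows of 50 kb 26 of 277 (9.39%). Both shares were below those over all windows at the same settings. The count was 6 with lists of equal length and 4 with peaks of at least 500 bp. It was 5 (4.85% against 5.51%) with equal-length lists for presence and deposited lists for absence, a setting chosen after seeing the data. With lists of equal length the lost share was 5.83% for the members and 6.14% over the windows of all protein-coding genes, and with peaks of at least 500 bp it was 4.40% and 12.5%. A −log10 q of at least 5 gave 16 lost regions, 2 of them among the original 12. With lists of equal length 5 of the 12 were lost again: those of Atm, Gadd45a, Rpa1 and Clspn and the region of Chek2 at 110868596 to 110869739. Leaving out each library in turn gave 14 to 21 lost regions, 2 to 8 gained, a distal lost share of 16.1% to 23.5% and 47 to 64 narrower and 16 to 30 wider regions, since fewer lists then have to agree. Without sgScramble replicate 1 or sgArid1a replicate 2 the lost count was 21 (15.3%, against 19.3% over all windows) and 20 (16.7% against 21.6%). The single gained region became 0 of 71 at a −log10 q of at least 5, where 0.274% were gained over all windows. It became 5 with the upper 50% by fold (9.26%, against 4.63% over all windows) and 4 with equal-length lists (4.04% against 4.36%). With windows of 50 kb 4 were gained (1.72% against 1.37%). The count was 2 of 83 with 50% cover and 2 of 80 with peaks of at least 500 bp, both above the shares over all windows. Counts this small carry no test. The distal lost share was 28.1% at a −log10 q of at least 5 and 7.02% with peaks of at least 500 bp. No distal background was computed at these settings. Over all windows, gene-end and distal regions together, the lost share also rose at a −log10 q of at least 5, from 11.8% to 19.1%. The 28.1% therefore cannot be read as particular to these genes. The 37 narrower regions became 19 with the upper 50% by fold (43.2%, against 38.7% over all windows), 24 in gene bodies alone (41.4% against 40.4%) and 90 with windows of 50 kb (40.7% against 40.3%), where fewer or more regions are counted. The narrower count was 7 (7.14% against 10.1%) where sgArid1a had to cover at most 80%. The 11 wider regions became 5 with the upper 50% by fold (11.4%, against 6.09% over all windows) and 7 in gene bodies alone (12.1% against 6.47%). With windows of 50 kb 21 were wider (9.50% against 6.46%), and under the reverse of the 80% limit 1 of 98 was. With the replicate block, comparing libraries of the same replicate number, 45 regions were narrower (45.9%, against 50.4% over all windows) and 13 wider (13.3% against 10.2%). The labels say nothing of what the shared numbers stand for. Apart from the effects of counting fewer or more regions, the cause of these shifts was not tested. Unknown depth limits every absence: a peak missing from a shorter list may lie under its threshold.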
